A study of Mus musculus with 2 samples.

Results

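The regions described here are pairs of neighbouring H2A.Z regions that lie on both sides of a short gap. A pair was 2 neighbouring regions of the looser wild-type list, on 17 autosomes (chromosomes 6, 8 and X were not used), with a gap of at most 500 bp between them and no further region of that list within 2 kb of either. There were 3819 such pairs. Their 7638 arms, the regions to the left and right of the gap, made up 9.22% of the 82835 wild-type regions on these chromosomes, of 99812 in all. The gap, the arm widths and the isolation of a pair in the looser wild-type list chose the members, so these values are given as a description. The state of the pairs in the K3R3 library was not used to choose them.

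Regions bound by H2A.Z were mapped by chromatin immunoprecipitation and sequencing (ChIP-seq) in mouse embryonic stem cells, with 1 library for each of 2 groups. The wild-type group expressed YFP-tagged H2A.Z, and the K3R3 group expressed the tagged protein with the lysines K119, K120 and K123 of its C-terminal tail changed to arginine. Both groups shared everything else the labels give. The labels name the strain as V6.5 (129SvJae x C57BL/6), and the tagged lines were made by lentiviral infection of KH2 cells. The transgene was under a CMV promoter with the rtTA drug-inducible system, was switched on with 1 µg/ml doxycycline, and YFP-positive cells were sorted. A hairpin against the endogenous H2A.Z transcript was present in both groups. The antibody was Abcam Ab290, raised against GFP, so the tagged protein was recovered from a mixture with any endogenous H2A.Z that was left. The H2A.Z compared is therefore a transgene product under a viral promoter, not the protein at its own locus. The lists hold no expression values, so the cell type was not checked against markers. Since each group had 1 library, differences between them could not be set against the spread of replicates, and no p-value was computed. The intervals printed are 95% Wilson intervals over pairs or arms, and they cover counting error only.

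The histone variant H2A.Z replaces H2A in nucleosomes at promoters, enhancers and insulators. At many active promoters a stretch with few nucleosomes holds the transcription machinery, and nucleosomes with H2A.Z stand on both sides of it. In embryonic stem cells H2A.Z is found at active genes and at the silent developmental genes that Polycomb proteins also occupy. The lysines changed in K3R3 are sites at which a single ubiquitin can be attached to the C-terminal tail.

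For each library the authors deposited a looser list (threshold 1e-09 in its track line) and a stricter list (threshold 1e-12). Each list gives the chromosome, start and end of every region on mm9, with no height, score or read number, so the depth behind a region is unknown. All edges lay on a grid of 25 bp, and the smallest gap in each of the 4 lists was 225 bp. A gap below 225 bp was thus never listed, and 1 region over both arms can mean a filled gap or a gap that had become shorter than 225 bp. Fragments of 200 to 400 bp had been selected for sequencing. Positions below are on mm9, and no annotation of that build was used.

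Gap widths fell off from the shortest that could be listed. The median gap was 325 bp (quartiles 250 and 400 bp, n = 3819 pairs). At 225 bp there were 546 pairs, at 250 bp 450, at 300 bp 363, at 400 bp 235 and at 500 bp 193, and the largest rise from a step to the next was from 235 to 248 pairs at 425 bp. Beyond the upper limit of the rule the decline went on: isolated neighbours numbered 885 at gaps of 425 to 500 bp, 644 at 525 to 600 bp, 441 at 925 to 1000 bp and 280 at 1925 to 2000 bp. Pairs chosen in the same way in the looser K3R3 list numbered 4532 and had the same median gap and quartiles. Their arms made up 9.07% of the 99976 K3R3 regions on the 17 autosomes. Close neighbours, regions with a gap of at most 500 bp whether isolated or not, numbered 8641 in the wild type, and 44.2% of them were isolated pairs. In K3R3 40.6% of 11156 close neighbours were isolated pairs.

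**Figure D1:**
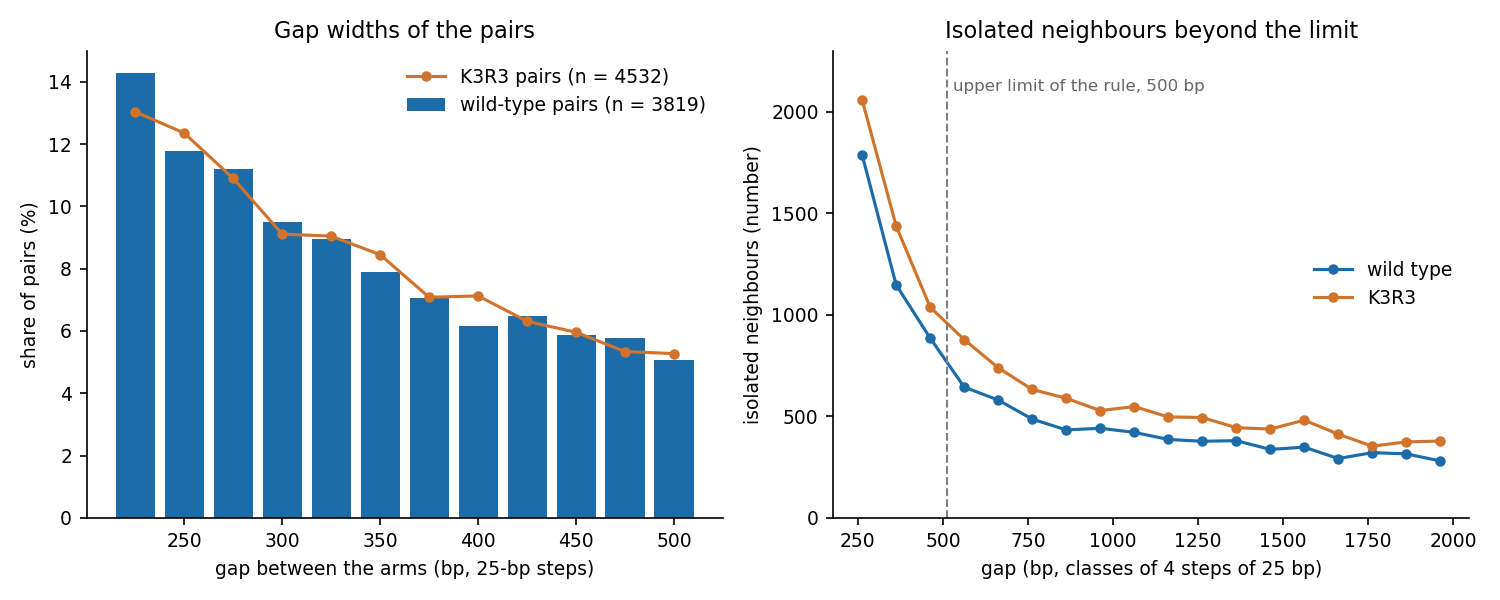
Left, share of pairs (%) at each gap width in steps of 25 bp, for 3819 wild-type pairs (bars) and 4532 K3R3 pairs (points). Right, number of isolated neighbours by gap width in classes of 4 steps, with the limit of 500 bp as a dashed line. Both libraries are highest at the shortest listed gap, and the wild type goes from 1787 neighbours at 225 to 300 bp to 280 at 1925 to 2000 bp.

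Pairs at the edge of the rule were close to those just outside it in shape. The 413 pairs with a gap of 475 or 500 bp had a median arm of 350 bp and a median arm ratio, narrower over wider, of 0.478. The 348 isolated neighbours with a gap of 525 or 550 bp had 375 bp and 0.473. Of the former 70.5% were a pair in K3R3, 3.15% were joined, 21.8% had 1 arm and 4.60% had neither arm. Of the latter these shares were 65.8%, 2.30%, 28.2% and 3.74%. For the isolation limit, the 432 pairs with the nearest further region 2025 to 2500 bp away were a pair in K3R3 in 61.8% of cases, and the 557 close neighbours with it 1525 to 2000 bp away in 61.4%.

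The arms were short and mostly unequal. The median arm was 375 bp wide (quartiles 200 and 650 bp) and the range ran from 25 to 4975 bp. Within a pair the narrower arm had a median of 250 bp and the wider a median of 575 bp. The median arm ratio was 0.468 (quartiles 0.262 and 0.696). In 55.6% of pairs (54.1 to 57.2%) the wider arm was at least 2 times the narrower, and in 24.4% it was at least 4 times. A ratio of at least 0.8 was found in 630 pairs (16.5%), and 101 pairs (2.64%) had arms of equal width. Both arms were at least 400 bp wide in 916 pairs (24.0%). Measured from outer edge to outer edge, a pair had a median span of 1200 bp, and the nearest further region was a median of 5800 bp away.

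Neither side was favoured. The left arm was the wider in 49.2% of pairs (47.6 to 50.8%) and the right arm in 48.2% (46.6 to 49.7%), in order of genome position and without regard to any gene's strand. The widths of the left and right arm of a pair were close to unrelated across pairs, with a Spearman rho of 0.092 over 3819 pairs of 1 library. Isolated neighbours with wider gaps looked alike: rho was 0.092 over 2584 neighbours at 525 to 1000 bp and 0.058 over 3457 at 1025 to 2000 bp, and their median arm ratios were 0.444 and 0.455. Gap width and summed arm width were also unrelated, with a rho of -0.028. K3R3 pairs had a median arm of 350 bp and a median arm ratio of 0.467.

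**Figure D2:**
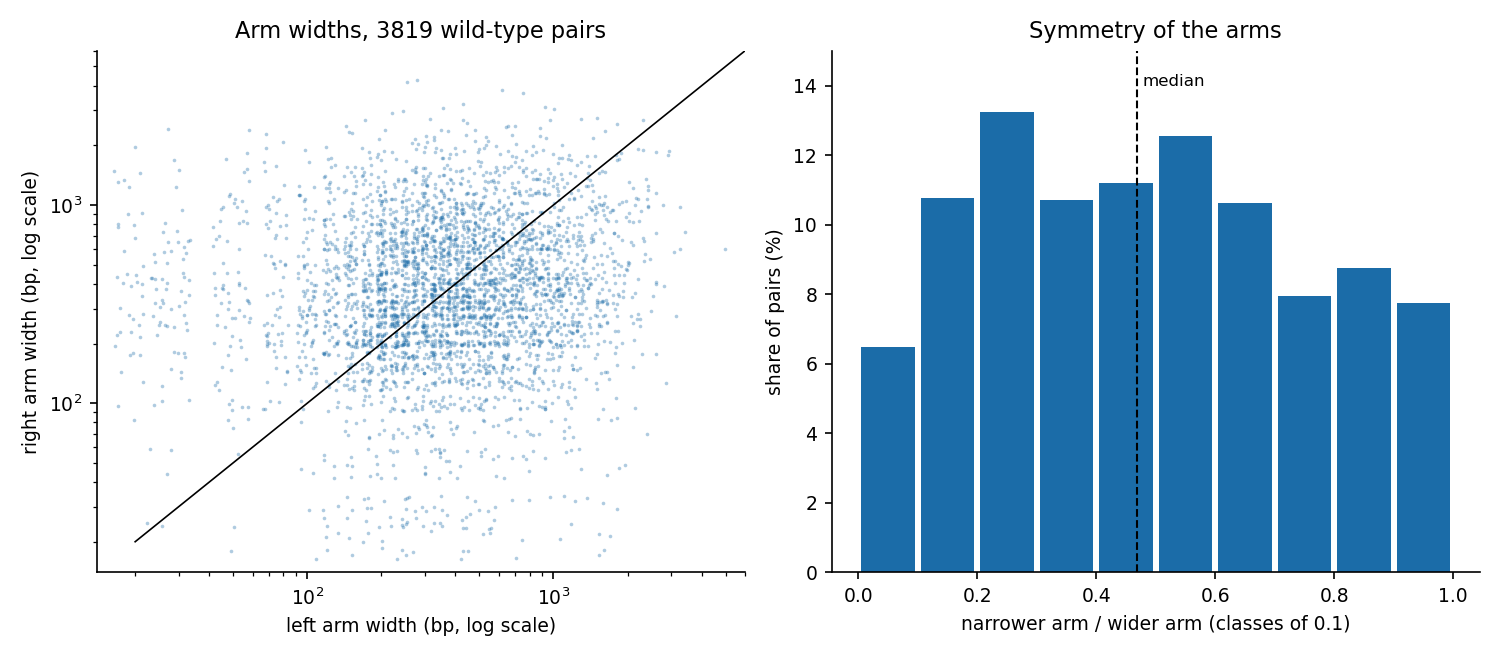
Left, width of the right arm against width of the left arm for 3819 wild-type pairs (both axes in bp on log scales, points moved by up to 9 bp so that they do not cover each other, diagonal for equal arms). Right, share of pairs (%) by the ratio of narrower to wider arm in classes of 0.1, with the median of 0.468 as a dashed line. Points lie on both sides of the diagonal, and 16.5% of pairs have a ratio of at least 0.8.

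The pairs with the least equal arms were a wide region beside a region of 1 grid step. At chr3:127334901-127337675 an arm of 25 bp stood 350 bp from an arm of 2400 bp, a ratio of 0.0104. The next, at chr17:24685426-24687750, had arms of 25 and 1950 bp. At all 4 pairs of this kind the stricter wild-type list kept the wide arm alone. In K3R3, 3 of the 4 were a pair and the fourth, at chr11:71563376-71565425, was covered by 1 region. The widest pairs with equal arms lay at chr13:113777251-113780250 (1375 bp each, gap 250 bp), chr15:97631051-97633425 (1050 bp, gap 275 bp), chr9:20924526-20926575 (900 bp, gap 250 bp) and chr7:51940251-51942350 (825 bp, gap 450 bp). All 4 were a pair in the stricter wild-type list, and 3 were a pair in K3R3 with gaps of 375, 425 and 250 bp in the order of chromosomes 13, 15 and 7. The pair on chromosome 9 had its right arm alone in the looser K3R3 list and both arms in the stricter K3R3 list.

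Most wild-type pairs were found again as a pair in K3R3. Each pair was classed by the looser K3R3 list at an overlap of at least 1 bp. In 2353 pairs (61.6%, 60.1 to 63.1%) different K3R3 regions lay over the left and right arm. In 480 (12.6%, 11.6 to 13.7%) 1 K3R3 region touched both arms, here called fused. In 846 (22.2%, 20.9 to 23.5%) a K3R3 region lay over 1 arm, and in 140 (3.67%, 3.11 to 4.31%) over neither. Among all 8641 close wild-type neighbours the same shares were 60.5%, 13.4%, 22.3% and 3.80%, so the isolated pairs stood near the background of close neighbours in every class. Isolated neighbours at gaps of 525 to 1000 bp were a pair in 68.9%, fused in 0.967%, 1 arm in 26.0% and neither in 4.10% (n = 2584). At 1025 to 2000 bp these were 71.6%, 0.145%, 25.1% and 3.18% (n = 3457). The share with both arms overlapped, fused or not, was 74.2% in the pairs against 69.9% and 71.8% at the wider gaps.

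The threshold alone moved some pairs between classes. In the stricter list of the same wild-type library 3187 of the pairs (83.5%, 82.2 to 84.6%) were again a pair, 607 (15.9%) had 1 arm, 25 (0.655%) had neither and 0 were fused. That 0 is no result, because the pairs were chosen by an open gap in the looser list of the same reads. Some stricter regions had no counterpart in the looser list, but none covered any part of these gaps. Pairs that the stricter wild-type list kept were a pair in K3R3 in 67.2% of cases (n = 3187), and those it did not keep in 33.2% (n = 632).

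The mirror comparison took the 4532 pairs of the looser K3R3 list and classed them by the looser wild-type list. Of these 2127 (46.9%, 45.5 to 48.4%) were a pair in the wild type, 604 (13.3%, 12.4 to 14.3%) were fused, 1418 (31.3%) had 1 arm and 383 (8.45%) had neither. Among all 11156 close K3R3 neighbours the shares were 49.2%, 11.8%, 31.0% and 8.09%. K3R3 pairs were thus found again less often than wild-type pairs, at 46.9% against 61.6%. This order turned when the K3R3 list was reduced to the number of wild-type regions by keeping the widest: 54.9% of the K3R3 pairs and 52.4% of the wild-type pairs were then a pair in the other library. The cut takes narrow regions out of the K3R3 list alone, so the share for the wild-type pairs could only fall. It also takes out the K3R3 arms that the wild type overlapped least (28.7% of those under 100 bp). The turn is therefore no like-for-like comparison of lists of equal length. The stricter K3R3 list kept 80.8% of the K3R3 pairs as a pair.

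**Figure D3:**
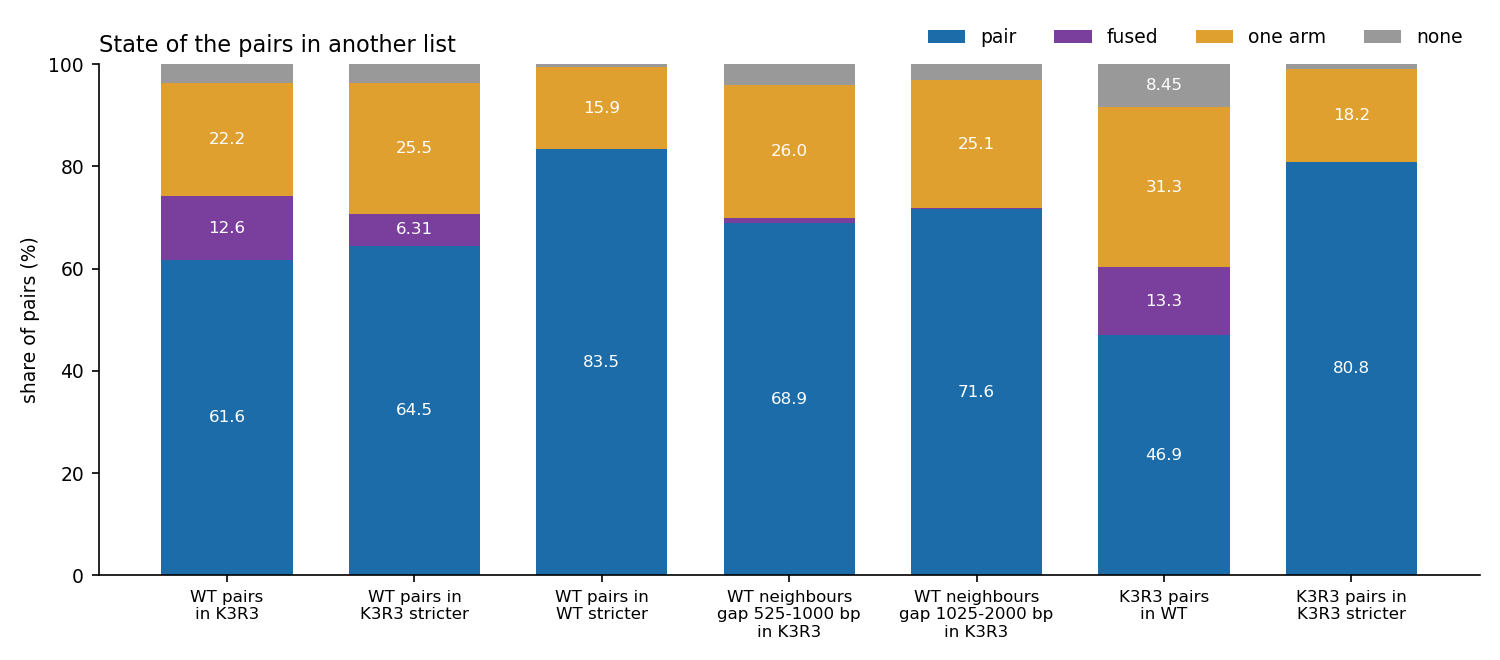
Share of pairs (%) that were a pair, fused, 1 arm or neither arm in another list, as stacked bars that add up to 100%. The bars show wild-type (WT) pairs in 3 lists, isolated wild-type neighbours with wider gaps, and K3R3 pairs in 2 lists. Fused pairs make up 12.6% of the wild-type pairs in K3R3, 13.3% of the K3R3 pairs in the wild type and 0.967% of neighbours at 525 to 1000 bp. In a library's own stricter list no pair was fused, since the pairs were chosen by an open gap in the same reads. Those bars show only pairs kept and arms lost.

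Fused pairs were most frequent at the shortest gaps. Since no gap below 225 bp was listed, narrowing by a grid step could be enough to join arms 225 bp apart. In K3R3 34.4% of the wild-type pairs with a gap of 225 bp were fused (30.6 to 38.5%, n = 546). The share was 24.7% at 250 bp, 13.8% at 275 bp, 10.2% at 300 bp and 7.60% at 325 bp, and between 2.59 and 4.44% at every step from 350 to 500 bp. The median gap was 250 bp in the fused pairs and 350 bp in the pairs that were kept. The fused share also went with the narrower arm. Counted among pairs with both arms overlapped, 36.9% were fused where the narrower arm was under 100 bp, 21.0% at 100 to 175 bp, 15.0% at 200 to 375 bp, 11.5% at 400 to 775 bp and 10.5% at 800 bp or more. The fall with gap width was also seen at a fixed arm width: with a narrower arm of 200 to 375 bp the fused share of all pairs was 20.2% at gaps of 225 to 300 bp, 3.94% at 325 to 400 bp and 4.92% at 425 to 500 bp.

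The joining K3R3 region was about as long as the pair it covered. Its median width was 1150 bp (n = 480) against a median span of 1050 bp, and the median ratio was 1.06. It reached past both outer edges in 183 of the fused pairs (38.1%, 33.9 to 42.5%) and lay inside the span in 70 (14.6%). In the stricter K3R3 list 202 of the 480 (42.1%) were a pair again, 239 (49.8%) were still fused, 36 had 1 arm and 3 had neither.

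Among isolated pairs, fusion between wide arms was more frequent in the wild type than in K3R3. Of all isolated pairs with both arms overlapped, 480 of 2833 wild-type pairs were fused in K3R3 (16.9%, 15.6 to 18.4%). In the mirror 604 of 2731 K3R3 pairs were fused in the wild type (22.1%, 20.6 to 23.7%). Close neighbours with a further region within 2 kb went the other way, at 19.1% and 17.4%, with intervals that overlap. Classed by the narrower arm, the shares of the isolated pairs were 36.9% and 36.8% under 100 bp, and 21.0% and 19.1% at 100 to 175 bp. They parted from 200 bp on, with 15.0% and 20.7% at 200 to 375 bp and 11.5% and 24.9% at 400 to 775 bp. At 800 bp or more they were 10.5% (6.58 to 16.4%, n = 152) and 18.2% (13.0 to 24.97%, n = 159), with intervals that overlap. With both arms at least 400 bp wide, 88 of 780 wild-type pairs were fused in K3R3 (11.3%, 9.25 to 13.7%), and 197 of 833 K3R3 pairs were fused in the wild type (23.6%, 20.9 to 26.7%). Between the stricter lists these shares were 10.1% and 28.4%. At this arm width, in the looser lists, the K3R3 pairs had the higher fused share on 16 of 17 chromosomes. The exception was chromosome 19 with 23.3% against 29.0%. Over all arms they had it on 15 of 17, with chromosome 3 equal at 20.9% and chromosome 16 at 19.1% against 19.3%. Chromosomes of the same libraries are not replicates. The bound of 400 bp was chosen after the values by arm width had been seen. The lists differ in length. The K3R3 list was also reduced to the wild-type number by keeping the widest regions. The shares between wide arms were then 11.5% (9.39 to 13.9%) and 22.8% (20.3 to 25.6%). This cut drops only the narrowest K3R3 regions, so it takes out no wide arm and no region that joins wide arms. It therefore could not show the part of list length in this difference. Over arms of any width the shares were 19.3% (17.8 to 20.9%) and 21.0% (19.4 to 22.6%), and these intervals overlap. The fused share of all wild-type pairs was 12.6% with and without the cut. The rise to 19.3% thus came from fewer kept pairs, 52.4% against 61.6%, as narrow K3R3 regions were dropped. The read number of neither library is known, and its part was not tested.

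**Figure D4:**
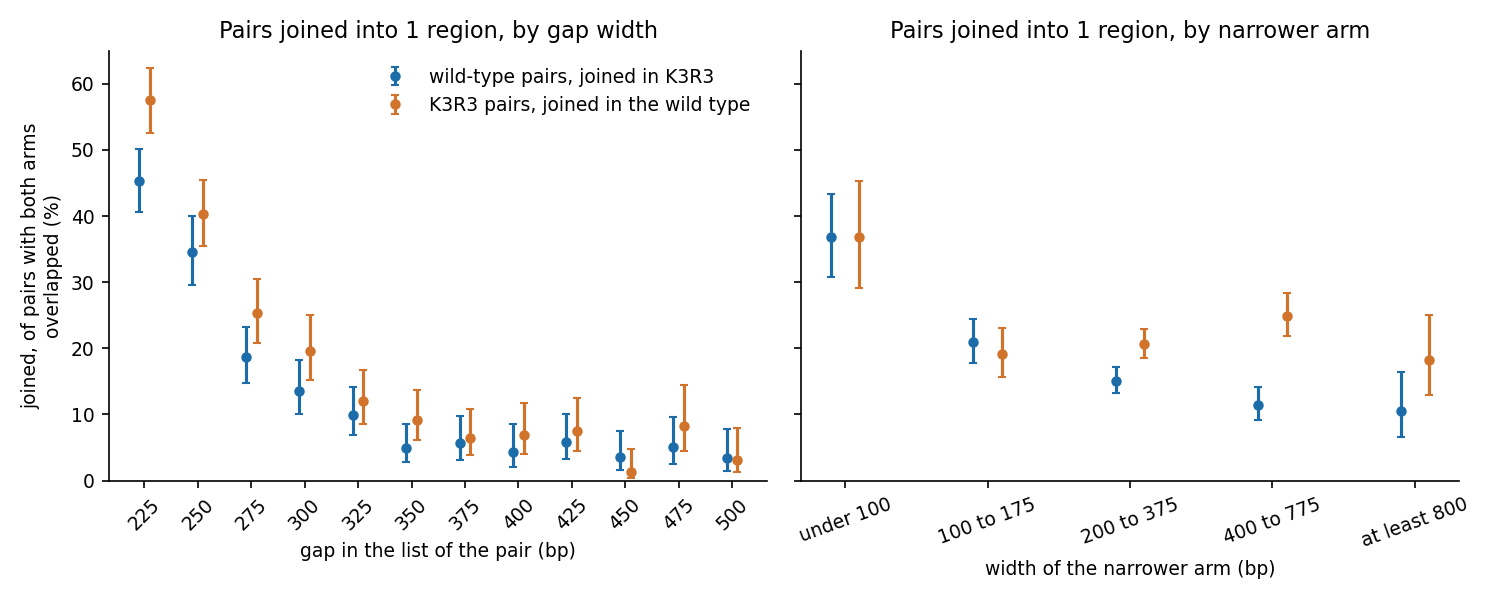
Share (%) of pairs with both arms overlapped that were covered by 1 region of the other library, by gap width (left, bp) and by the width of the narrower arm (right, bp), with 95% Wilson intervals as bars. Blue points are wild-type pairs joined in K3R3 and orange points are K3R3 pairs joined in the wild type. Both fall with gap width, and they separate at narrower arms of 200 to 375 bp (15.0 and 20.7%) and 400 to 775 bp (11.5 and 24.9%), while the intervals overlap at 800 bp or more (10.5 and 18.2%).

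Where K3R3 had 1 arm, it was mostly the wider. In 649 of the 846 pairs (76.7%, 73.7 to 79.4%) the overlapped arm was the wider and in 174 (20.6%) the narrower, while the left arm was the overlapped one in 431 (50.9%). The missing arm had a median width of 200 bp and the overlapped arm 450 bp. The same 76.8% was found in the mirror, where 1089 of 1418 K3R3 pairs with 1 arm in the wild type had the wider. In 115 of the 846 (13.6%) the stricter K3R3 list did hold a region over the arm that the looser list lacked. A region can thus be in a stricter list and not in the looser list of the same library. This was more frequent among wide arms: of 60 missing arms of at least 800 bp, 20 (33.3%) were overlapped in the stricter K3R3 list, against 37 of 516 (7.17%) under 200 bp.

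The 140 pairs without either arm in K3R3 had small arms, with a median of 150 bp for the narrower and 325 bp for the wider. The nearest K3R3 region was a median of 5550 bp away, and in 19 it was within 2 kb. In the stricter K3R3 list 12 of the 140 were a pair, 2 were fused, 31 had 1 arm and 95 (67.9%) had neither.

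For the wild-type arms, overlap in K3R3 went with width, and at matched widths arms and lone regions gave the same share within counting error. Of the 7638 arms 6512 were overlapped (85.3%, 84.4 to 86.0%), against 84.1% of all wild-type regions. The share rose from 52.3% of arms under 100 bp to 71.6%, 85.7%, 91.3% and 95.9% in the classes of 100 to 175, 200 to 375, 400 to 775 and at least 800 bp. Lone regions, without a neighbour within 2 kb, gave 85.5% when weighted to the width classes of the arms. In the mirror 75.9% of the K3R3 arms were overlapped in the wild type (75.0 to 76.8%), against 69.8% of all K3R3 regions and 71.7% of lone K3R3 regions at the same widths. The pair share followed the narrower arm in turn: it was 31.3% with a narrower arm under 100 bp, 52.0% at 100 to 175 bp, 67.5% at 200 to 375 bp, 74.1% at 400 to 775 bp and 81.9% at 800 bp or more. At a fixed narrower arm of 200 to 375 bp the pair share was 66.0% (62.6 to 69.1%) with a ratio up to 0.5 and 69.1% (65.7 to 72.2%) above it, with intervals that overlap. At a fixed narrower arm a lower ratio means a wider partner, so symmetry was not separated from the width of the wider arm.

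Where a pair was present in both libraries, its gap stood at nearly the same place. Of the 2353 kept pairs 2252 had exactly 1 K3R3 region per arm, and 1655 met the whole rule in K3R3 as well. At these 1655 the mean difference of the gaps, K3R3 minus wild type, was 0.589 bp and the median 0 bp, and 1528 of the gaps (92.3%) differed by at most 100 bp. The gap was narrower in K3R3 at 663, equal at 316 and wider at 676. It differed by at most 1 grid step in 51.6%, and the centres of the gaps were within 50 bp of each other in 94.0%. Since both lists had to meet the limit of 500 bp here, large changes in width were left out by construction. Among the 2252, where K3R3 was free to widen, its gap was over 500 bp at 190 (8.44%), and the mean difference was 17.1 bp with a median of 0 bp. In the mirror, 2058 K3R3 pairs had exactly 1 wild-type region per arm, and the wild type was free to widen. There the wild-type gap was over 500 bp at 193 (9.38%), and the mean difference was -21.0 bp with a median of 0 bp. The sign of the mean thus went with the library in which the pairs were chosen. The gap differed by at most 1 grid step in 47.2% of the 2252, and the centres were within 50 bp of each other in 90.4%.

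The unequal arms of a pair were unequal in the same direction in both libraries. At 1449 of the 1655 pairs (87.6%, 85.9 to 89.1%) the same arm was the wider, at 122 (7.37%) the opposite arm, and in the rest the arms were equal in 1 library or both. Among pairs with a wild-type ratio up to 0.5 the same arm was wider in 96.8% (n = 825). Across the 1655 pairs the rho between the libraries was 0.900 for the log2 ratio of left to right width, 0.749 for the arm ratio and 0.671 for the gap. Arm widths were close: the mean log2 of K3R3 over wild-type width was -0.01 for the arm that was wider in the wild type and 0.12 for the narrower. Both medians were 0. The arms were sorted by wild-type width, and such a sort alone can raise the value of the narrower arm. No sort by K3R3 width was made. The outer edges lay on average 7.90 bp further out in K3R3 and the inner edges moved inward by a mean of -0.295 bp, both less than 1 grid step.

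In the stricter list of the wild-type library the gaps of the pairs were as wide or wider, as trimming of the arms gives by construction. At the 3062 pairs with exactly 1 stricter wild-type region per arm the gap was equal at 695 and wider at 2367, by a mean of 41.7 bp over all 3062 (median 25 bp). These values come from the same reads and measure no spread between libraries.

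K3R3 regions stood just outside some pairs. A K3R3 region lay within 2 kb outside the outer edges at 661 of the 3819 pairs (17.3%), where by the rule the looser wild-type list had none, and a region of the stricter wild-type list at 152 (3.98%). In the mirror a wild-type region lay there at 450 of the 4532 K3R3 pairs (9.93%). No such share is given here for lone regions or for neighbours with wider gaps. The 17.3% is therefore not shown to be particular to pairs. The K3R3 list is the longer, with 99976 regions on the 17 autosomes against 82835, and the part of that in this difference was not tested.

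The widest pair of each class shows what the classes look like. Among the pairs kept in K3R3 the widest lay at chr2:127948126-127953950, with arms of 4975 and 600 bp and a gap of 250 bp. K3R3 split its left arm into regions of 200, 3825 and 450 bp, and so did the stricter wild-type list, with 100, 3850 and 475 bp. The gap was open in all 4 lists. At chr14:26276276-26281475 the arms of 2300 and 2675 bp were regions of 1075 and 2325 bp in the looser K3R3 list, and the gap went from 225 to 275 bp. The stricter K3R3 list held a further region of 525 bp in the left arm, which the looser one lacked. The stricter wild-type list had a region of 575 bp there. At chr15:78992601-78997525 the arms of 2925 and 1775 bp were covered to 97.4% and 100% in K3R3, and the gap again went from 225 to 275 bp. The pair at chr7:90014026-90018825, with arms of 2600 and 1850 bp, was covered to 89.4% and 95.9%.

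Among the fused pairs the clearest change was at chr4:140217376-140222050. There the wild type had arms of 3250 and 975 bp with a gap of 450 bp, the stricter wild-type list had 3225 and 925 bp, and both K3R3 lists had 1 region of 4650 bp. At chr2:168285101-168288975 a gap of 250 bp was likewise covered in both K3R3 lists. At chr4:128384951-128390000 a K3R3 region of 3500 bp ran over the wild-type gap of 225 bp, but a gap lay further left, next to a K3R3 region of 1350 bp. This pair counts as fused by the rule, although K3R3 also had 2 regions there. At chr2:35411951-35416375 the joining region of 3925 bp was in the looser K3R3 list only, and the stricter K3R3 list had regions of 950 and 2550 bp with the gap of 375 bp open.

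Of the 4 widest pairs with 1 arm in K3R3, 2 were a pair in the stricter K3R3 list. At chr19:5049401-5053350 the left arm of 2375 bp was missing from the looser K3R3 list, and the stricter list had a region of 1225 bp there. A pair on chromosome 18 with arms of 2175 and 1075 bp behaved in the same way. At chr3:108214051-108218900 an arm of 275 bp beside one of 4275 bp was missing from both K3R3 lists and from the stricter wild-type list. At chr15:78266101-78269825 an arm of 350 bp was missing from both K3R3 lists and present in both wild-type lists.

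Of the 4 widest pairs with neither arm in K3R3, 2 were absent from both K3R3 lists. These lay at chr10:80100676-80103375, with arms of 1050 and 1175 bp, a gap of 475 bp and the nearest K3R3 region 4625 bp away, and at chr7:29580626-29582925, with arms of 1575 and 375 bp and the nearest K3R3 region 6375 bp away. At chr4:135226901-135229225 the stricter K3R3 list had regions of 450 and 525 bp over the arms. At chr19:3983751-3986775 it had regions of 1075, 275 and 200 bp over the right arm of 2100 bp.

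At the largest changes in gap width an inner edge of an arm moved, by construction. The gap narrowed most at chr2:177852751-177854950, from 500 to 225 bp, where the left arm grew from 300 to 675 bp and the right from 1400 to 1550 bp. The stricter lists showed the same: the arms were 300 and 1400 bp wide in the stricter wild-type list and 650 and 1525 bp wide in the stricter K3R3 list. At chr4:150785776-150786950 the gap went from 475 to 225 bp and at chr12:113451876-113453075 from 500 to 250 bp. It widened most at chr11:78827201-78830175, from 400 to 1675 bp, where the left arm of 1575 bp was a region of 300 bp in K3R3. The stricter wild-type list also had a left region of 275 bp there, so this difference was between the looser lists. At chr15:100617476-100619825 the gap went from 325 to 1425 bp, and a region of 400 bp that the stricter K3R3 list held in between was not in the looser one. The stricter wild-type list also split the right arm, into regions of 450 and 425 bp, so this difference too was between the looser lists. At chr4:148178151-148181375 the gap went from 375 to 1375 bp as the left arm shrank from 2025 to 975 bp, and the left region was 1975 bp wide in the stricter wild-type list and 950 bp wide in the stricter K3R3 list.

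**Figure D5:**
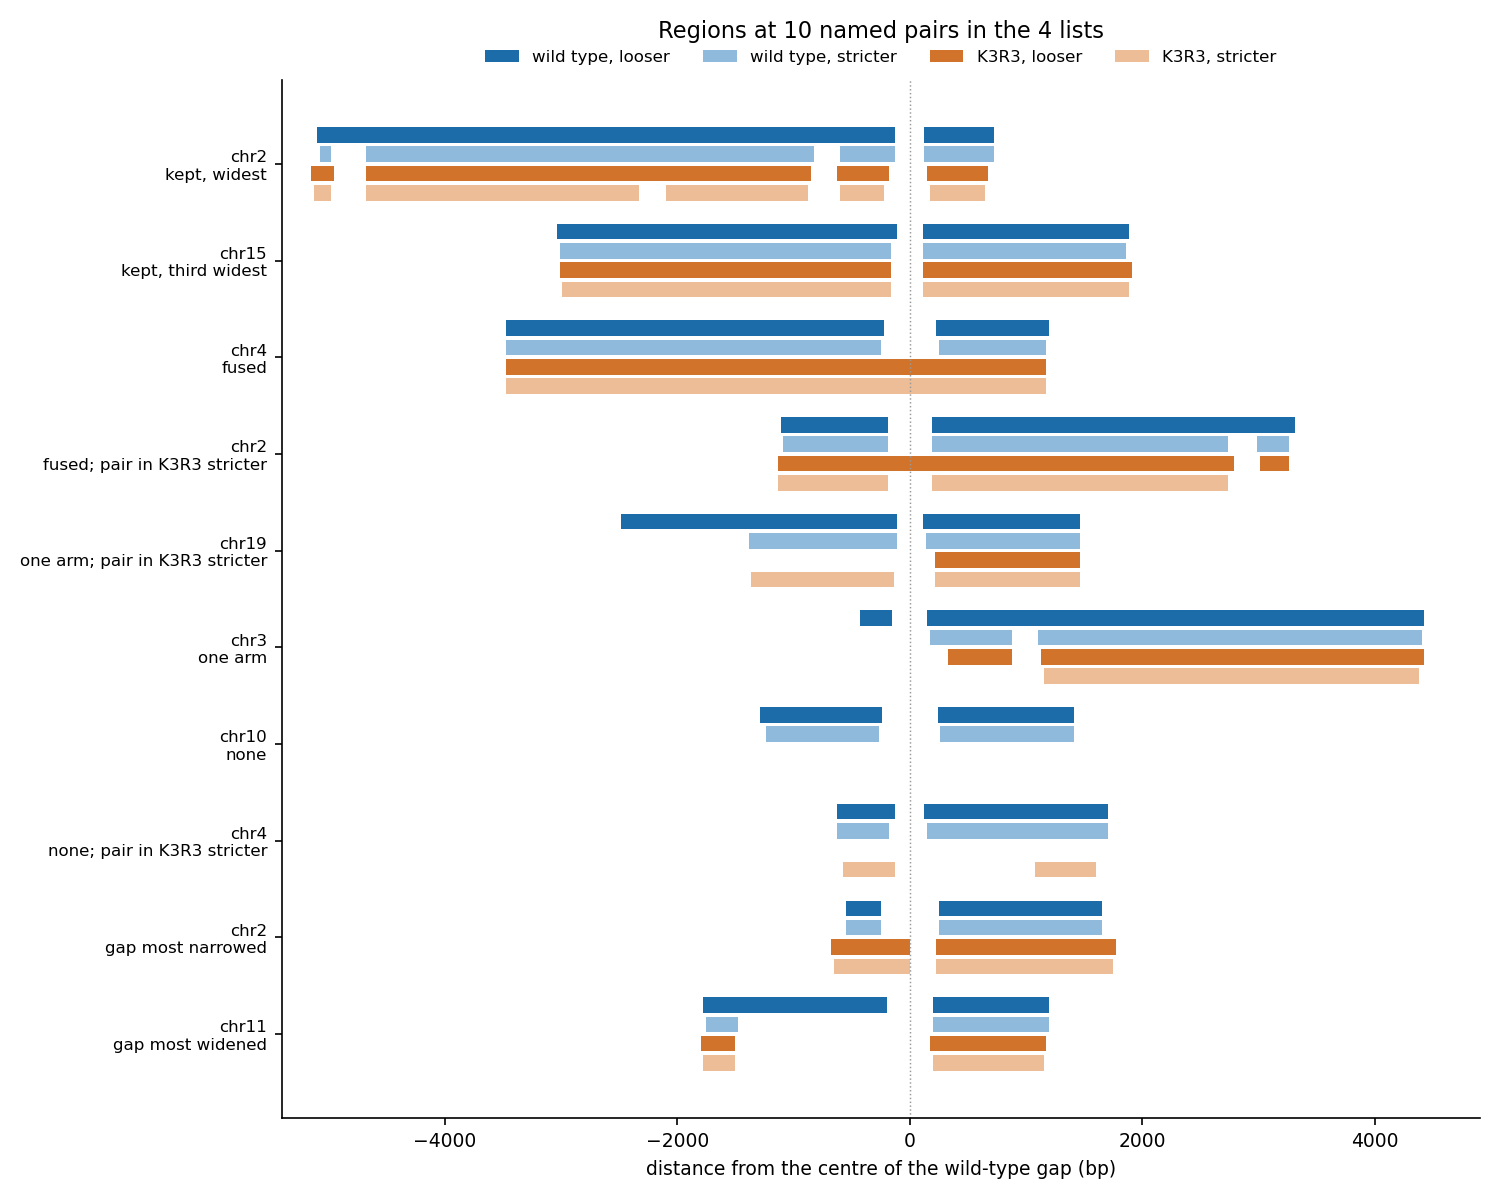
Regions of the 4 lists at 10 named pairs, drawn to scale against the distance from the centre of the wild-type gap (bp), with 1 row per list and the state in the looser K3R3 list beside each pair. The gap of 450 bp on chromosome 4 is covered in both K3R3 lists, the pair on chromosome 10 has no K3R3 region, and the pairs on chromosomes 19 and 4 labelled as a pair in the stricter K3R3 list lack an arm or both in the looser one.

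Pairs were spread over all 17 chromosomes, from 113 on chromosome 16 to 366 on chromosome 2. Arms made up between 7.58% of the wild-type regions on chromosome 16 and 10.7% on chromosome 9. The share kept as a pair in K3R3 ran from 57.3% on chromosome 3 to 65.5% on chromosome 14, the fused share from 9.41% on chromosome 9 to 15.2% on chromosome 3, and the share with neither arm from 1.35% on chromosome 14 to 5.74% on chromosome 11.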

How the data were processed

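ChIP-seq of YFP-tagged H2A.Z gave 1 library per group. The deposited lists give each region's start and end in bp (the only unit used) on mm9; Bowtie 0.12.3 and bedtools are named in the submitters' processing notes, with caller, control and filters not given in the sources used here. Replicates were not pooled, since each group had 1 library. Here pairs were found in each list, classed by overlap of at least 1 bp (Python 3.11.15, numpy 2.4.6) and checked against bedtools 2.31.1 and on simulated data with known states. No test could be made. The members, classes and named pairs were chosen with earlier results of these data known. Named pairs were, per class, the 4 with the largest summed arms, the 4 with the least equal and the 4 widest with equal arms, and the 3 whose gap narrowed and the 3 whose gap widened most in K3R3. Alternatives changed the gap limit, the isolation, the lists, the overlap, the arm width and the chromosomes. No per-sample columns were left out. No sequence, gene or promoter is given, because the reference tables used another build.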

Additional observations from a re-analysis of the deposited data

How the results depend on the processing

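No paired analysis was possible because there was 1 library in each group. Replicates could not be left out for the same reason. Values outside the counting interval of the reported value, or a count changed by over 1.5 times, were as follows. The cause of these shifts was not tested beyond what each setting leaves in or out. With a gap of at most 300 bp there were 1787 wild-type and 2058 K3R3 pairs, the median gap was 250 bp, 52.0% of the wild-type pairs were a pair in K3R3 and 22.1% fused, 39.6% of the K3R3 pairs were a pair in the wild type and 24.2% fused, and the median gap difference at kept pairs was 25 bp. With at most 400 bp the median gap was 300 bp and these 4 shares were 58.7%, 15.3%, 45.5% and 16.5%. With at most 1000 bp there were 6403 and 7898 pairs, the median gap was 450 bp, 64.5% of the wild-type pairs were kept and 7.89% fused, 8.03% of the K3R3 pairs were fused, and 84.3% of the arms were overlapped. With no further region within 1 kb 11.9% of the K3R3 pairs were fused. With none within 5 kb there were 2127 and 2284 pairs, 11.0% and 15.5% were fused, and 84.3% of the arms were overlapped. Between the stricter lists 11.5% and 16.2% were fused. With at least 50% of an arm covered 57.7% and 41.4% were kept, 82.4% of the arms were overlapped, and the stricter wild-type list kept 76.0%. With both lists of the other library 64.9% and 49.2% were kept and 87.5% of the arms were overlapped. With the K3R3 list cut to the wild-type number 52.4% and 54.9% were kept, 14.6% of the K3R3 pairs were fused and 79.5% of the arms were overlapped. With both arms at least 200 bp there were 2497 and 2942 pairs, the median arm ratio was 0.562, 70.4% and 57.2% were kept, 11.1% and 16.0% were fused, 89.7% of the arms were overlapped and the stricter wild-type list kept 98.6%. On all chromosomes 58.9% of the wild-type pairs were kept, 11.0% and 15.6% were fused and 82.5% of the arms were overlapped. The fused shares among pairs with both arms overlapped (16.9% for the wild-type and 22.1% for the K3R3 pairs) were 29.8% and 38.0% with a gap of at most 300 bp, 20.7% and 26.6% with 400 bp, 10.9% and 14.5% with 1000 bp, 15.2% and 24.6% with the 5 kb limit, and 19.3% and 21.0% with the cut K3R3 list. Of the other settings, both arms at least 200 bp gave 13.6% for the wild-type pairs, and the K3R3 pairs gave 19.95% with the 1 kb limit, 25.5% between the stricter lists, 23.9% with at least 50% covered and 24.8% on all chromosomes. With both arms at least 400 bp (11.3% and 23.6%) they were 18.5% and 42.3% with at most 300 bp, 7.28% and 15.6% with 1000 bp, and 9.18% and 29.6% with the 5 kb limit, and the K3R3 pairs gave 28.6% with 400 bp, 20.6% with the 1 kb limit and 28.4% between the stricter lists. The K3R3 pairs had the higher of these shares in each of the 11 alternatives, but with the cut K3R3 list the intervals overlapped over arms of any width. All 11 kept an isolation limit of 1, 2 or 5 kb, so they do not cover close neighbours that are not isolated. Among close neighbours with a further region within 2 kb the order over arms of any width was reversed. There the share was 19.1% (17.9 to 20.5%) for the wild type and 17.4% (16.3 to 18.6%) for K3R3, with intervals that overlap. Wide arms were not examined there. The share kept was higher for the wild-type pairs in 10 of the 11, all but the cut K3R3 list. The lists give no depth, so what depth limits cannot be stated.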

Other observations

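Chromosomes 6 and 8, which the rule leaves out, held pairs with another balance of classes. Of their 660 wild-type pairs 43.3% were a pair in K3R3, 1.82% were fused (12 pairs), 43.5% had 1 arm and 11.4% had neither. Of their 514 K3R3 pairs 51.0% were a pair in the wild type, 33.7% were fused (173 pairs), 13.2% had 1 arm and 2.14% had neither. The values were alike on both chromosomes: 9 of 326 wild-type pairs were fused on chromosome 6 and 3 of 334 on chromosome 8, and 82 of 242 and 91 of 272 K3R3 pairs. The looser wild-type list was the longer there, with 7626 regions against 5936 on chromosome 6 and 7819 against 6288 on chromosome 8, the reverse of the other autosomes. On chromosome X 10 of 79 wild-type pairs were fused in K3R3, and 24 of 97 K3R3 pairs were fused in the wild type.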
